A study of Mus musculus with 18 samples.

Results

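The 10 genes described here carry glucose into the cell and down to lactate: Slc2a1, Hk1, Hk2, Pfkp, Aldoa, Pgk1, Eno1, Pkm and Ldha, with Pdk1 at the branch to the mitochondria. They were chosen by name as the rows of a deposited table of read counts per gene, out of 28906 genes with at least 1 count, and all 10 were among the 16170 genes that passed the filter on low counts. The table came from bulk RNA-seq of GFP-labeled fibroblasts sorted from neonatal mouse hearts, in 18 libraries that form 6 groups of 3.

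All mice were C57BL/6J, carried Tcf21-MerCreMer and the Rosa-mTmG reporter, and received tamoxifen at P1, the day after the day of birth. Tcf21-MerCreMer is a tamoxifen-inducible Cre expressed in resident cardiac fibroblasts, and Rosa-mTmG switches a cell and its descendants from tdTomato to GFP. P2 baseline and P10 baseline hearts were taken from unoperated mice at P2 and P10. P2 sham +3 days and P10 sham +3 days mice had the heart exposed without injury, and P2 resected +3 days and P10 resected +3 days mice had the ventricular apex removed, at P2 or P10, and these hearts were taken at P5 or P13. Surgery was done under hypothermia with supplemental oxygen, and pups received slow-release buprenorphine, in a larger volume at P10. Survival was high at P2 and much lower at P10. The apical part of the ventricles was digested, for longer in the older hearts, so age and digestion time cannot be told apart. The 3 groups operated on or collected from P2 are called the P2 window below, and the other 3 the P10 window.

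Glycolysis splits glucose into pyruvate in the cytosol, and lactate dehydrogenase turns pyruvate into lactate so that the pathway can go on when oxygen is short. In low oxygen the hypoxia-inducible factors HIF-1 and HIF-2 accumulate and raise transcription of glucose transporters and most glycolytic enzymes through sites with the core letters ACGTG or GCGTG. The mammalian heart moves away from glycolysis toward fatty acid oxidation after birth, a change that is best known from cardiomyocytes.

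Library totals ran from 10462737 to 22980554 counts, and the 10 genes together took between 0.145% and 0.285% of them. The summed level of 10 fibroblast markers, Pdgfra, Tcf21 and collagens among them, ranged from 54400 to 117000 CPM, and that of 12 cardiomyocyte markers from 163 to 1560 CPM. CPM are read counts scaled to the library total after adjustment of that total by TMM scaling. Among all genes tested 13.5% were called between the windows and 7.11% were higher in the P10 window. Beside these shares, 4 of 10 fibroblast markers were higher and 1 lower in the P10 window, and 7 of 12 cardiomyocyte markers were lower. Of the other cell types, 2 of 12 macrophage, 3 of 8 mural and 1 of 7 erythroid markers were higher, 1 mural marker was lower, and no endothelial or epicardial marker was called. Called or not, 11 of 12 macrophage and 7 of 7 erythroid markers had positive fitted log2 fold changes, with medians of 1.13 and 0.96, and 1 of 7 epicardial markers did, beside a median of -0.06 over all genes. All 12 cell division markers were lower in the P10 window, and 6 of 13 dissociation and immediate early genes were higher. In bulk RNA, fewer cells of a type and less RNA per cell cannot be told apart, and the part of these lists in the results that follow was not tested.

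The genes lie on GRCm38 (mm10) as follows, from the GENCODE M21 annotation. Slc2a1, the glucose transporter GLUT1, spans chr4:119108711-119137983 on the plus strand. Hk1 and Hk2, hexokinases that trap glucose as its phosphate, span chr10:62268855-62379908 and chr6:82725025-82774454 on the minus strand, and Pfkp, the platelet form of phosphofructokinase, spans chr13:6579768-6648777 on the minus strand. Aldoa, an aldolase, has 1 row in the table but 2 gene identifiers in the annotation, at chr7:126795234-126800751 and chr7:126800790-126809108 on the minus strand. Pgk1, phosphoglycerate kinase, spans chrX:106187100-106203699, Eno1, an enolase, chr4:150236721-150248879, and Pkm, pyruvate kinase M, chr9:59656368-59679375, all on the plus strand. Ldha, lactate dehydrogenase A, spans chr7:46841475-46855627 and Pdk1, a kinase that switches off pyruvate dehydrogenase, chr2:71873224-71903858, both on the plus strand.

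The promoters of the 5 genes that the results turn on are shown, since the shared hypoxia letters lie in them. Each is the RefSeq sequence (GRCm38.p6) from 250 bases before to 50 after an annotated start, written in the direction of the gene, with every ACGTG or GCGTG in capitals on either strand (CACGT or CACGC on the other). Overlapping matches to the same motif were counted once, as in CACGTG for ACGTG and in the run CACGCGTG of Hk1 for GCGTG. The first 2 are the genes with the largest fitted folds after resection, and the last 3 are those called higher in the P10 window. The windows are chr4:119108495-119108794 (plus strand) for Slc2a1, chr6:82774405-82774704 (minus) for Hk2, chr10:62340372-62340671 (minus, the second annotated start) for Hk1, chr13:6648722-6649021 (minus) for Pfkp and chr7:126799205-126799504 (minus, the second annotated start) for Aldoa. For Hk1 and Aldoa the second start is shown because it holds matches, while the window of the first start of each held neither motif.
Slc2a1: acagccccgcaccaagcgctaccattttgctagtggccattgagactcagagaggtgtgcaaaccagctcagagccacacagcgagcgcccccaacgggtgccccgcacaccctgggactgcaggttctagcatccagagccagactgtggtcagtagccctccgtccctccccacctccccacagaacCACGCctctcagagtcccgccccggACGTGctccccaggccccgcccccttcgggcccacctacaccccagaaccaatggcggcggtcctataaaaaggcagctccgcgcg
Hk2: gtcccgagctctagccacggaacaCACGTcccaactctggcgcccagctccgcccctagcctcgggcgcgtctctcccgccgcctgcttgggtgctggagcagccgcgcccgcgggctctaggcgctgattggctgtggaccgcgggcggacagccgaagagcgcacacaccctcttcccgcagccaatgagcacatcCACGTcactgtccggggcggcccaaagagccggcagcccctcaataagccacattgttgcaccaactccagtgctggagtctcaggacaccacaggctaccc
Hk1: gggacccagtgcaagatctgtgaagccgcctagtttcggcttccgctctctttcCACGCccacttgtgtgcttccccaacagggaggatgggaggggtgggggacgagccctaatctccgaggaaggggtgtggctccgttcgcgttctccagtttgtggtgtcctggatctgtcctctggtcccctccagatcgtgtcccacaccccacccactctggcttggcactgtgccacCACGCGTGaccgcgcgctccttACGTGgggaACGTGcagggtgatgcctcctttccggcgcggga
Pfkp: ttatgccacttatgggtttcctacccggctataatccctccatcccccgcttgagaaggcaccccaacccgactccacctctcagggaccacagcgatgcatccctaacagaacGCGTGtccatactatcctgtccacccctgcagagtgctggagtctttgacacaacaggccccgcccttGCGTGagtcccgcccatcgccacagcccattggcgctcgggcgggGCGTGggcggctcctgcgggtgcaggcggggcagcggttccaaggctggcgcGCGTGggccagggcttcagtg
Aldoa: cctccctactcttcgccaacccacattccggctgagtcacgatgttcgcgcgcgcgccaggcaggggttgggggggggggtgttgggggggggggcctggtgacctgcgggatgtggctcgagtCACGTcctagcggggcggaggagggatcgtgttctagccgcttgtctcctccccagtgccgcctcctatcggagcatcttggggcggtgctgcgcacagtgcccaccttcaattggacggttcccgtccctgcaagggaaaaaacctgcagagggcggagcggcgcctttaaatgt

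Slc2a1 held 1 ACGTG, at base -36 from its start, and 1 GCGTG at -61. Hk2 held 2 ACGTG, at -226 and -52, and no GCGTG in this window. The Hk1 window held 2 of each, Pfkp held 4 GCGTG and no ACGTG, and the Aldoa window 1 ACGTG at -126. Over all 18 windows of the 10 genes, 8 held ACGTG, 9 held GCGTG and 14 held either, and windows of Aldoa and of Eno1 that overlap count the same sites again. Among 32851 RefSeq promoter windows of the same length, 19.6% held ACGTG, 32.4% GCGTG and 43.8% either. Each of the 10 genes had at least 1 window with a match to either, beside 46.7% of 27025 genes, with from 1 to 3 windows for each of the 10. A match describes letters and no binding was measured here.

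Per kilobase of exon, the order of the 10 genes was the same in both windows. In the P2 window, 9 libraries, Ldha stood first at 233 ± 72.2 CPM per kb (mean ± SD), followed by Aldoa at 122 ± 27.4 and Pkm at 73.5 ± 16.4. Eno1 followed at 39.3 ± 9.71, Pgk1 at 25.1 ± 5.91, Hk1 at 11.1 ± 2.65 and Pfkp at 7.22 ± 1.04 CPM per kb. Slc2a1, at 5.28 ± 2.42, Pdk1, at 3.76 ± 0.56, and Hk2, at 1.40 ± 1.48 CPM per kb, came last. Ldha, Aldoa, Pkm and Eno1 were thus listed well above the transporter, the kinases that open the pathway and the pyruvate dehydrogenase kinase. The order depends on exon length, taken over all annotated transcripts (13401 bases for Pfkp, 8532 for Hk1 and 2244 for Pgk1). By CPM without length, Hk1 (94.7 in the P2 and 134 in the P10 window) and Pfkp (96.8 and 139) stood above Pgk1 (56.4 and 47.2). Neighbours whose mean ± SD overlapped were Eno1 with Pgk1, Pfkp with Slc2a1 and Slc2a1 with Pdk1 in the P2 window. In the P10 window they were Ldha with Aldoa, Pgk1 with Hk1, Slc2a1 with Pdk1 and Pdk1 with Hk2.

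Several of these levels carry a limit from counting. Of the 75-base stretches in the exons of Pgk1, 52.8% occur also in other annotated genes, and the share was 23% for Eno1, 17.8% for Pkm and 4.87% for Pfkp. Reads from such stretches cannot be assigned to 1 gene, so the level of Pgk1 per kilobase is uncertain. Its copies Pgk1-rs7 and Gm5537 were listed at 0 counts in every library, while Eno1b, a copy of Eno1, ran from 1.22 to 12.9 CPM. The authors counted without strand, and 5.58% of the exon bases of Pfkp lie over Pitrm1 on the other strand, a gene at 66.2 to 122 CPM. Hk2 and Pdk1 shared no such stretch with another gene.

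**Figure D1:**
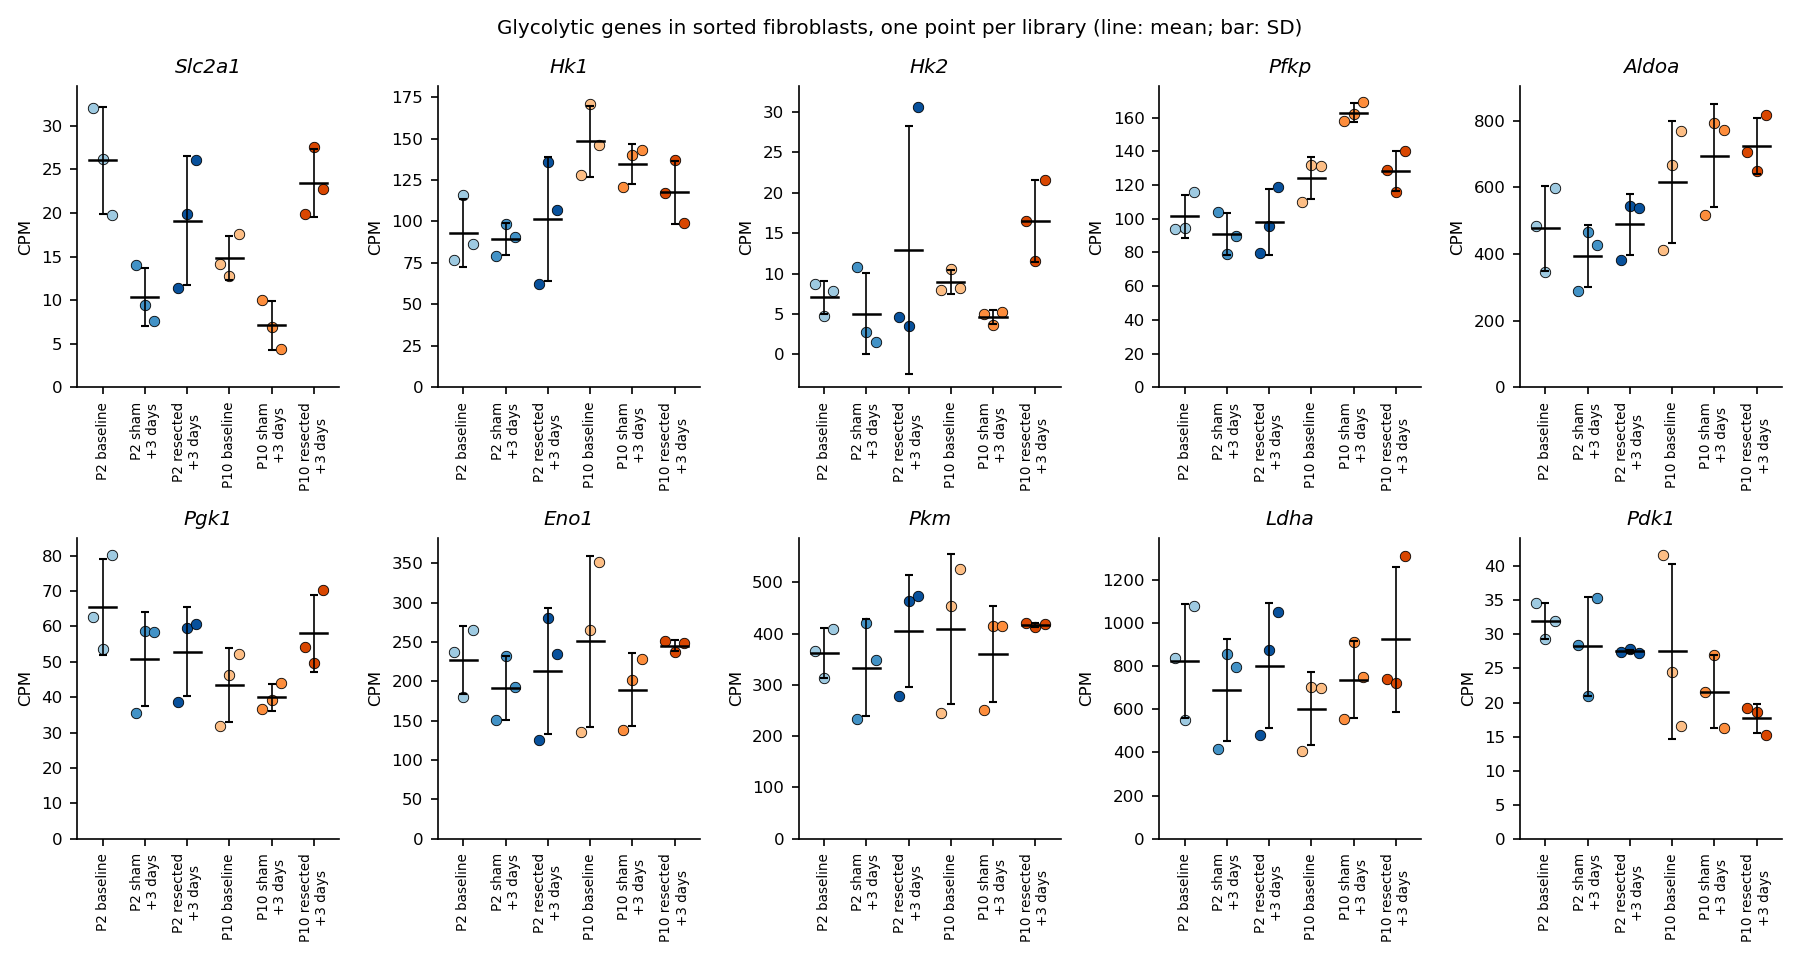
Normalised read count (CPM, linear axis) of the 10 genes in each of the 18 libraries; points are libraries, lines the mean and bars the SD of 3 libraries in each group. Slc2a1 is low in both sham groups and higher in both baseline and both resected groups, and Pfkp reaches its highest level, 158 to 169 CPM, in P10 sham +3 days.

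The first question was whether the age of the heart, from the regenerative to the non-regenerative window, changed these genes. Between the windows 3 of the 10 genes were called higher in the P10 window and none lower: Pfkp, Aldoa and Hk1, which act at the phosphofructokinase, aldolase and hexokinase steps of the upper pathway. The fold increase was 1.42 for Pfkp, 1.5 for Aldoa and 1.41 for Hk1. Of all 16170 genes, 13.5% were called between the windows in either direction, and 7.11% were called higher in the P10 window. The median log2 fold change of the 10 genes was 0.11 and that of all genes -0.06. With scaling to total counts only Pfkp was called, beside 15.8% of all genes. No member had CPM values that did not overlap between the windows, a pattern held by 2.51% of all genes.

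Pfkp, the rate-setting step in its platelet isoform, measured 93.8, 94.4 and 116 CPM in P2 baseline and 110, 132 and 131 CPM in P10 baseline. After sham surgery it measured 104, 79.1 and 89.6 CPM at P2 and 158, 162 and 169 CPM at P10. After resection the values were 79.9, 95.4 and 119 CPM at P2 and 129, 116 and 140 CPM at P10. The groups of the same treatment overlapped between the ages at baseline and after resection, and stood apart after sham surgery. Over the windows the log2 fold change was 0.51 ± 0.11 (SE) with an adjusted p of 0.00528 in the quasi-likelihood test of edgeR, adjusted over all genes (Benjamini-Hochberg). The call held in all 24 alternative settings, with log2 fold changes from 0.37 to 0.56.

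Aldoa, which splits fructose bisphosphate into its trioses, measured 484, 346 and 599 CPM in P2 baseline and 413, 666 and 768 CPM in P10 baseline. After sham surgery the values were 288, 465 and 427 CPM at P2 and 516, 794 and 773 CPM at P10. After resection they were 383, 545 and 538 CPM at P2 and 705, 649 and 816 CPM at P10. The baseline groups overlapped, and both pairs of operated groups did not. The log2 fold change between the windows was 0.58 ± 0.16 (SE; edgeR's quasi-likelihood test, adjusted p 0.0195). The call was lost only with scaling to total counts (log2 fold change 0.45, adjusted p 0.0561 in the same test), among 24 settings.

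Hk1, the hexokinase that most tissues express, measured 76.5, 116 and 86.4 CPM in P2 baseline and 128, 171 and 146 CPM in P10 baseline. After sham surgery the values were 78.9, 98.3 and 90.6 CPM at P2 and 121, 140 and 143 CPM at P10. After resection they were 62, 136 and 107 CPM at P2 and 117, 137 and 99.1 CPM at P10. The older groups stood above the younger ones at baseline and after sham surgery and overlapped with them after resection. The log2 fold change was 0.49 ± 0.15 (SE; edgeR's quasi-likelihood test, adjusted p 0.0358). The call was close to the threshold: it was lost in 12 of 18 fits that left out 1 library, from either window, with adjusted p from 0.0576 to 0.0851, and with scaling to total counts (0.36, adjusted p 0.102 in edgeR). The log2 fold change stayed between 0.36 and 0.58 in every setting run.

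The other 7 genes were not called between the windows. Pdk1, which holds pyruvate back from the mitochondria, had a log2 fold change of -0.41 ± 0.19 (SE; edgeR's quasi-likelihood test, adjusted p 0.151). It measured 34.6, 29.4 and 32 CPM in P2 baseline, 28.5, 20.9 and 35.3 CPM in P2 sham +3 days and 27.4, 27.8 and 27.3 CPM in P2 resected +3 days. The P10 values were 41.6, 24.5 and 16.5 CPM at baseline, 21.6, 27 and 16.2 CPM after sham surgery and 19.2, 18.6 and 15.2 CPM after resection. P10 baseline replicate 1, at 41.6 CPM, stood above all other libraries, and the P10 resected libraries stood below all P2 libraries. Without P10 baseline replicate 1 the log2 fold change was -0.56 (edgeR's quasi-likelihood test, adjusted p 0.0312), and with limma's quality weights on all libraries it was -0.55 (adjusted p 0.0121).

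Slc2a1, at -0.35 ± 0.22, Pgk1, at -0.27 ± 0.16, and Ldha, at -0.05 ± 0.21, had negative log2 fold changes (± SE) between the windows. Hk2, at 0.19 ± 0.42, Eno1, at 0.11 ± 0.19, and Pkm, at 0.11 ± 0.17, had positive ones. Adjusted p values for these 6 ran from 0.300 to 0.926 in edgeR's quasi-likelihood test. Without 1 library of either window Ldha reached 0.03. Scaling to total counts moved the median of all genes from -0.06 to -0.20, and Eno1 and Pkm to -0.02 and -0.03. Relative to that median Eno1 stood at 0.17 before and 0.18 after, Pkm likewise, and none of the 10 genes changed sign between the scalings. Ldha, at -0.05 as fitted, stood at 0.01 relative to the median of all genes in the main fit.

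**Figure D2:**
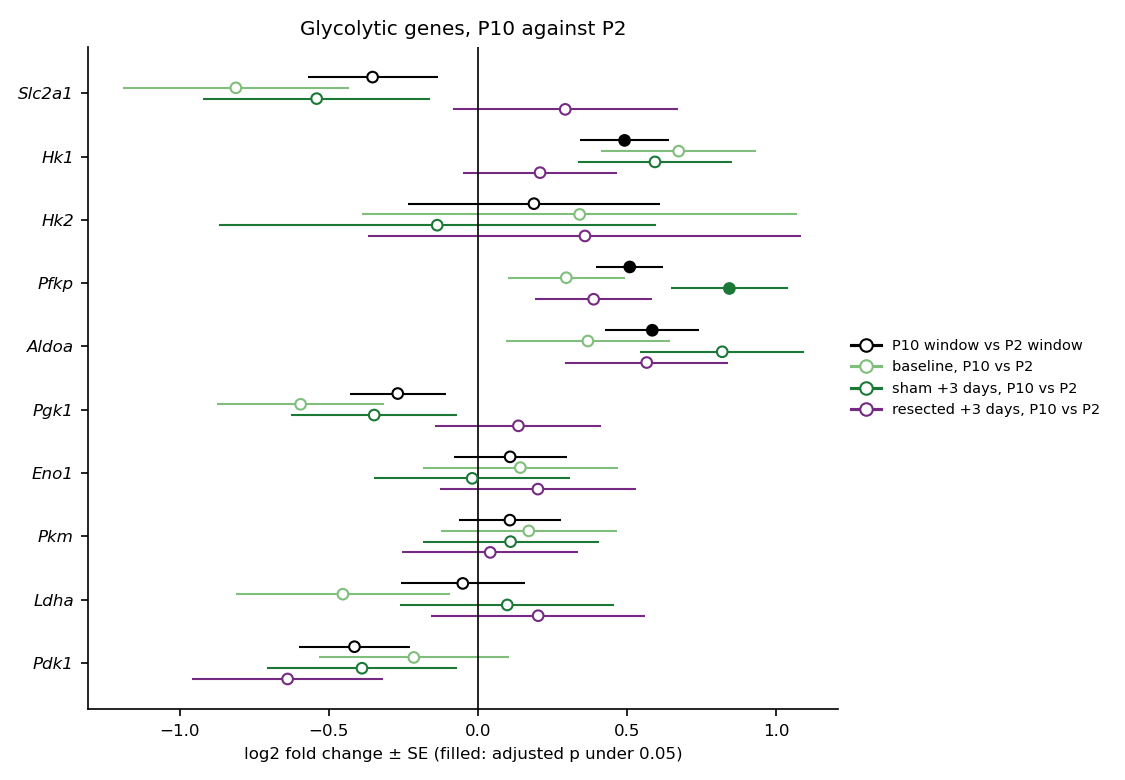
Log2 fold change ± SE (x axis) of the 10 genes for P10 against P2, over the windows and within baseline, sham and resected groups; filled points passed the adjusted p threshold of 0.05 and open points did not. Pfkp, Aldoa and Hk1 lie to the right of 0 in all 4 comparisons, and Pdk1 to the left.

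Each treatment was then compared between the ages, with 3 libraries at each. At baseline none of the 10 genes was called, beside 4.38% of all genes, and 3 had an unadjusted p under 0.05 (Hk1, Slc2a1 and Pgk1), beside 3022 genes in all or 18.7%. DESeq2 called none, beside 10.5% of the genes it tested. Limma's quality-weighted fit called 2, Slc2a1 and Hk1, beside 22.5% of all genes. Slc2a1 had a log2 fold change of -0.81 ± 0.38 at baseline and Pgk1 -0.59 ± 0.28, while Hk1 had 0.67 ± 0.26 (SE). These were also the 3 genes whose baseline CPM did not overlap between the ages, 1 higher and 2 lower at P10, and 22.4% of all genes showed that pattern.

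Pgk1, which makes the first ATP of the pathway, measured 62.7, 53.6 and 80.2 CPM in P2 baseline and 31.8, 46.3 and 52.1 CPM in P10 baseline. Its sham groups, at 35.5, 58.6 and 58.5 CPM and 36.6, 39.3 and 44 CPM, overlapped. Its resected groups also overlapped, with 38.5, 59.4 and 60.7 CPM at P2 and 54.3, 49.6 and 70.3 CPM at P10. Of the 3 treatments, the ages stood apart at baseline only, and a difference in the age effect between baseline and operated groups was not tested.

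After sham surgery Pfkp was called higher at P10 (log2 fold change 0.84 ± 0.20; edgeR's quasi-likelihood test, adjusted p 0.0243), and it was the only member called, beside 3.18% of all genes. DESeq2, limma and the replicate block in edgeR each called Pfkp and Aldoa, 2 members, beside 8.07%, 4.37% and 3.93% of the genes each tested. Without the filter on low counts, and with only the compared groups in the fit, edgeR called 0 members, beside 3.15% and 0.908% of the genes tested. The call of Pfkp by edgeR was lost when any 1 of 5 sham libraries was left out (P2 sham replicate 2 or 3, or any P10 sham replicate). The CPM of Hk1, Pfkp and Aldoa did not overlap between the sham groups, all 3 being higher at P10, and 16.7% of all genes did not overlap. After resection no member was called by edgeR or DESeq2 and none had an unadjusted p under 0.05, beside 0.86% of all genes called by edgeR and 3.63% of those DESeq2 tested. Aldoa (log2 fold change 0.57 ± 0.27) was higher and Pdk1 (-0.64 ± 0.32) lower without overlap between the resected groups, a pattern held by 23.3% of all genes in either direction.

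Of the 13 dissociation and immediate early genes, edgeR called 3 higher in P10 than in P2 baseline libraries, 1 in the sham pair and 2 in the resected pair, and none lower. Their summed level ran from 6220 to 7070 CPM in P2 baseline and from 12000 to 15400 CPM in P10 baseline, from 3530 to 9170 and from 7550 to 14600 CPM after sham surgery, and from 4130 to 8710 and from 10600 to 16700 CPM after resection. The sums overlapped between the sham groups, and all 13 genes had counts in every group. Their part in the age differences was not tested.

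The next question was whether resection changed these genes beyond the sham operation. No gene was called by edgeR in resected against sham libraries at either age, 0% of 16170 in both comparisons, and so no member. The largest fitted values of the members were those of Slc2a1 and Hk2, the glucose transporter and the hexokinase that responds to insulin and hypoxia. At P10 Slc2a1 had a fitted fold of 3.29 and Hk2 of 3.6 after resection.

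Slc2a1 measured 32.1, 26.2 and 19.8 CPM in P2 baseline, 14, 9.41 and 7.64 CPM in P2 sham +3 days and 11.4, 19.9 and 26.1 CPM in P2 resected +3 days. The P10 values were 14.1, 12.8 and 17.6 CPM at baseline, 10, 6.92 and 4.39 CPM after sham surgery and 19.9, 27.6 and 22.8 CPM after resection. Each sham group lay below the baseline group of its age without overlap, and the P10 resected libraries all lay above both other P10 groups. At P2 the resected and sham groups overlapped through P2 resected replicate 1. By group mean the order ran from P2 baseline (26 ± 6.14 CPM, SD) through P10 resected (23.5 ± 3.86), P2 resected (19.1 ± 7.36), P10 baseline (14.8 ± 2.44) and P2 sham (10.3 ± 3.27) to P10 sham (7.11 ± 2.83). Mean ± SD overlapped between every pair of neighbours in that order.

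For Slc2a1, P10 resected against P10 sham gave a log2 fold change of 1.72 ± 0.39 (SE), the seventh lowest unadjusted p of all genes (0.000357). Its adjusted p was 0.626 in edgeR's quasi-likelihood test, and no gene had a lower one in this comparison. DESeq2's Wald test called it (log2 fold change 1.72, adjusted p 0.00519), together with 0.206% of the genes it tested. At P2 the log2 fold change was 0.89 ± 0.38 (edgeR's quasi-likelihood test, unadjusted p 0.0321, adjusted p 1.0). Over the 13 alternatives it stayed between 1.47 and 2.05 at P10 and between 0.60 and 1.17 at P2. The difference between the ages was 0.83 ± 0.54 and was not called, and no gene was called in that test, 0% of 16170.

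Hk2 measured 8.65, 4.74 and 7.80 CPM in P2 baseline, 10.8, 2.81 and 1.5 CPM in P2 sham and 4.57, 3.55 and 30.6 CPM in P2 resected libraries. The P10 values were 8.01, 10.6 and 8.19 CPM at baseline, 4.94, 3.62 and 5.19 CPM after sham surgery and 16.5, 11.5 and 21.6 CPM after resection. At P10 the 3 groups did not overlap, with sham lowest and resected highest. At P2 a single library, resected replicate 3, carried the difference: the log2 fold change was 1.35 ± 0.74 with it and -0.31 without it. The P10 log2 fold change was 1.85 ± 0.75 (unadjusted p 0.0247, adjusted p 1.0 in edgeR's quasi-likelihood test), and it stayed between 1.61 and 2.05 in the 13 alternatives. DESeq2 did not call it.

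**Figure D3:**
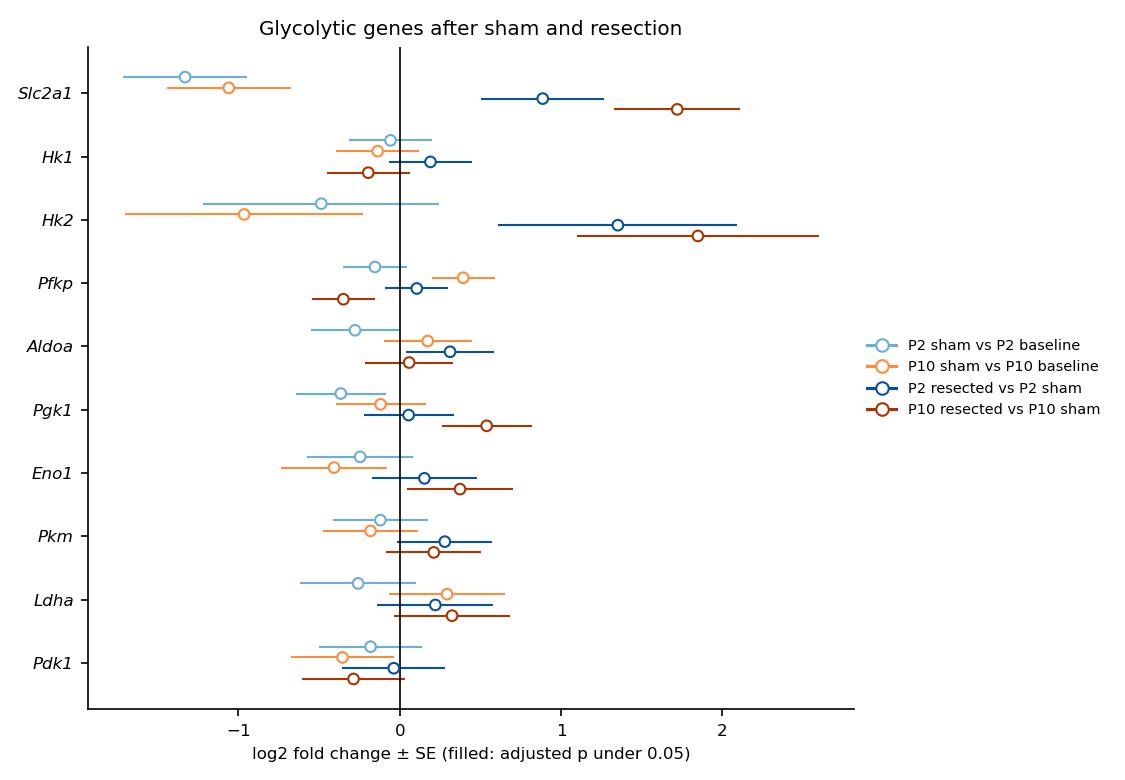
Log2 fold change ± SE (x axis) of the 10 genes for sham against baseline and for resected against sham at each age; open points did not pass the adjusted p threshold of 0.05, and no point did. Slc2a1 and Hk2 lie left of 0 for sham against baseline and right of 0 for resected against sham at both ages, and these comparisons share the sham libraries.

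The other 8 genes had log2 fold changes from -0.35 to 0.54 at P10 and from -0.04 to 0.31 at P2 in resected against sham libraries. At P10 the CPM of 5 members did not overlap, beside 8.68% of all genes: Slc2a1, Hk2, Pgk1 and Eno1 were higher and Pfkp lower after resection. Eno1, which makes phosphoenolpyruvate, measured 138, 202 and 229 CPM in P10 sham and 251, 237 and 249 CPM in P10 resected libraries, and its log2 fold change was 0.37 ± 0.33. Pfkp ran from 158 to 169 CPM in the sham libraries and from 116 to 140 CPM in the resected ones, with a log2 fold change of -0.35 ± 0.20. At P2 no member was without overlap, beside 8.47% of all genes. Over the 10 genes the median log2 fold change was 0.27 at P10, where 7 were positive, and 0.21 at P2, where 9 were positive, beside medians of 0.02 and 0.00 over all genes. Aldoa, Pgk1, Eno1, Pkm and Ldha were each lowest in replicate 1 of both sham groups and of P2 resected, so these signs are not independent. An unadjusted p under 0.05 was reached by 2 members at P10 (661 genes in all) and by 1 at P2 (730 genes in all).

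Pkm and Ldha, which end the pathway in pyruvate and lactate, did not separate the groups. Pkm measured 252, 415 and 415 CPM in P10 sham and 420, 413 and 419 CPM in P10 resected libraries. Ldha measured 554, 910 and 749 CPM in P10 sham and 740, 721 and 1310 CPM in P10 resected libraries. In P2 sham libraries Ldha ran from 417 to 854 CPM and in P2 resected libraries from 482 to 1050 CPM. Both genes overlapped between the groups at each age.

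No marker of another cell type, of cell division or of dissociation was called by edgeR in resected against sham libraries at either age. Several summed levels at P10 were nevertheless higher in some resected libraries. The summed level of 12 macrophage markers ran from 102 to 369 CPM in P10 sham and was 464, 1100 and 76 CPM in P10 resected replicates 1 to 3, all 12 genes having positive log2 fold changes. None of these markers was at 0 over either group. That of 8 erythroid genes ran from 66.9 to 142 CPM and was 480, 295 and 84.8 CPM in the same replicates, with 2 of the genes at 0 in the sham group. All 12 cell division genes had positive log2 fold changes, with sums of 166 to 272 CPM in sham and 209 to 504 CPM in resected libraries. So had all 7 epicardial markers tested, with sums of 0 to 9.25 CPM and 3.96 to 57 CPM, 2 of 8 being at 0 in the sham group. Of 9 endothelial markers 7 were positive, and their sums overlapped at 254 to 477 CPM and 311 to 495 CPM. Of 13 dissociation and immediate early genes 11 were positive, with sums of 7550 to 14600 CPM in P10 sham and 10600 to 16700 CPM in P10 resected libraries. Cardiomyocyte markers were positive in 9 of 12, with overlapping sums of 163 to 821 CPM and 240 to 722 CPM, and mural markers in 5 of 8. At P2 all 12 macrophage markers were also positive, at 7.76 to 187 CPM in sham and 72.9 to 454 CPM in resected libraries. In the same comparison 8 of 9 endothelial and 7 of 8 mural markers were positive, and 2 of 12 cardiomyocyte and 0 of 7 erythroid ones. Sums overlapped for each of these 4 lists. The part of these lists in the values of Slc2a1 and Hk2 was not tested.

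Sham libraries were also set against baseline libraries of the same starting day, and here surgery and 3 days of further age cannot be told apart. At P2 all 10 genes had negative log2 fold changes, from -1.33 to -0.06 with a median of -0.25, and the median of all genes was 0.03. None was called by edgeR, as none of all genes was (0%), and 1 member, Slc2a1, had an unadjusted p under 0.05, beside 1229 genes in all. Slc2a1 had a log2 fold change of -1.33 ± 0.38 (edgeR's quasi-likelihood test, adjusted p 0.458), and DESeq2's Wald test called it (-1.30, adjusted p 0.0498), together with 1.09% of the genes it tested. Slc2a1 was the only member without overlap, beside 9.96% of all genes. Among the P2 sham libraries, Aldoa, Pgk1, Eno1, Pkm and Ldha were each lowest in replicate 1 (288, 35.5, 151, 234 and 417 CPM). Within groups these 5 genes rose and fell together (r 0.79 to 0.96), so the 10 negative signs are not independent.

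At P10 the log2 fold change of Slc2a1 was -1.06 ± 0.38 and that of Hk2 -0.96 ± 0.74, and the sham libraries stood below baseline without overlap for both genes. Pfkp stood above baseline without overlap, with a log2 fold change of 0.39 ± 0.20. These 3 of 10 genes compare with 10.0% of all genes. No member was called by edgeR or DESeq2, beside 0.00618% of all genes in edgeR and 1.01% of those tested in DESeq2, and 1 member, Slc2a1, had an unadjusted p under 0.05, beside 1197 genes in all. The remaining 7 genes had log2 fold changes from -0.41 to 0.29.

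No marker of another cell type, of cell division or of dissociation was called by edgeR in sham against baseline libraries. At P2 all 7 erythroid markers tested had positive log2 fold changes, with sums of 25.8 to 47.2 CPM in baseline and 51 to 308 CPM in sham libraries, 2 of 8 being at 0 in the baseline group. At P10, 10 of 12 macrophage markers were positive, with sums of 19 to 241 CPM and 102 to 369 CPM. Negative values prevailed at P10 among cell division genes (1 of 12 positive, 265 to 487 CPM in baseline and 166 to 272 CPM in sham libraries), dissociation genes (1 of 13, 12000 to 15400 CPM and 7550 to 14600 CPM), mural markers (0 of 8, 689 to 1520 CPM and 588 to 984 CPM) and cardiomyocyte markers (2 of 12, 534 to 714 CPM and 163 to 821 CPM). At P2, 9 of 12 macrophage markers were positive, and 3 of 12 cardiomyocyte and 3 of 12 cell division ones, with sums that overlapped for each list. The part of these lists in the values of Slc2a1, Hk2 and Pfkp was not tested.

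The same substrate step is often served by several genes, and the share of each member in its family was followed per kilobase of exon. The shares depend on these lengths, taken over all annotated transcripts (13401 bases for Pfkp and 7779 for Pdk1). Ldha made up 90 ± 2.39% of Ldha plus Ldhb in the P2 window and 91.8 ± 3.28% in the P10 window (SD, 9 libraries each). Pfkp made up 24.8 ± 4.98% and 29.6 ± 6.09% of the 3 phosphofructokinase genes, and Hk2 10.5 ± 8.46% and 9.68 ± 6.41% of Hk1, Hk2 and Hk3. Slc2a1 made up 58.1 ± 14.9% and 50.8 ± 17.4% of Slc2a1, Slc2a3 and Slc2a4. Pdk1 made up 10.3 ± 1.64% and 7.06 ± 3.30% of the 4 pyruvate dehydrogenase kinases, a difference of -3.25 percentage points.

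None of these 5 differences passed the threshold. The Pdk1 share gave p 0.0186 in a two-sided exact permutation test of 9 against 9 libraries, and 0.093 with Benjamini-Hochberg adjustment over the 5 families. The others gave adjusted p from 0.209 to 0.809 in the same exact permutation test. Without P10 baseline replicate 1, where the Pdk1 share was 15.2%, the difference was -4.27 points (exact permutation test, adjusted p 0.000823). The Slc2a1 share was lowest in P10 sham libraries, at 33.9 ± 9.61%, and stood at 66.9 ± 7.98% in P10 resected libraries (SD, 3 each).

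**Figure D4:**
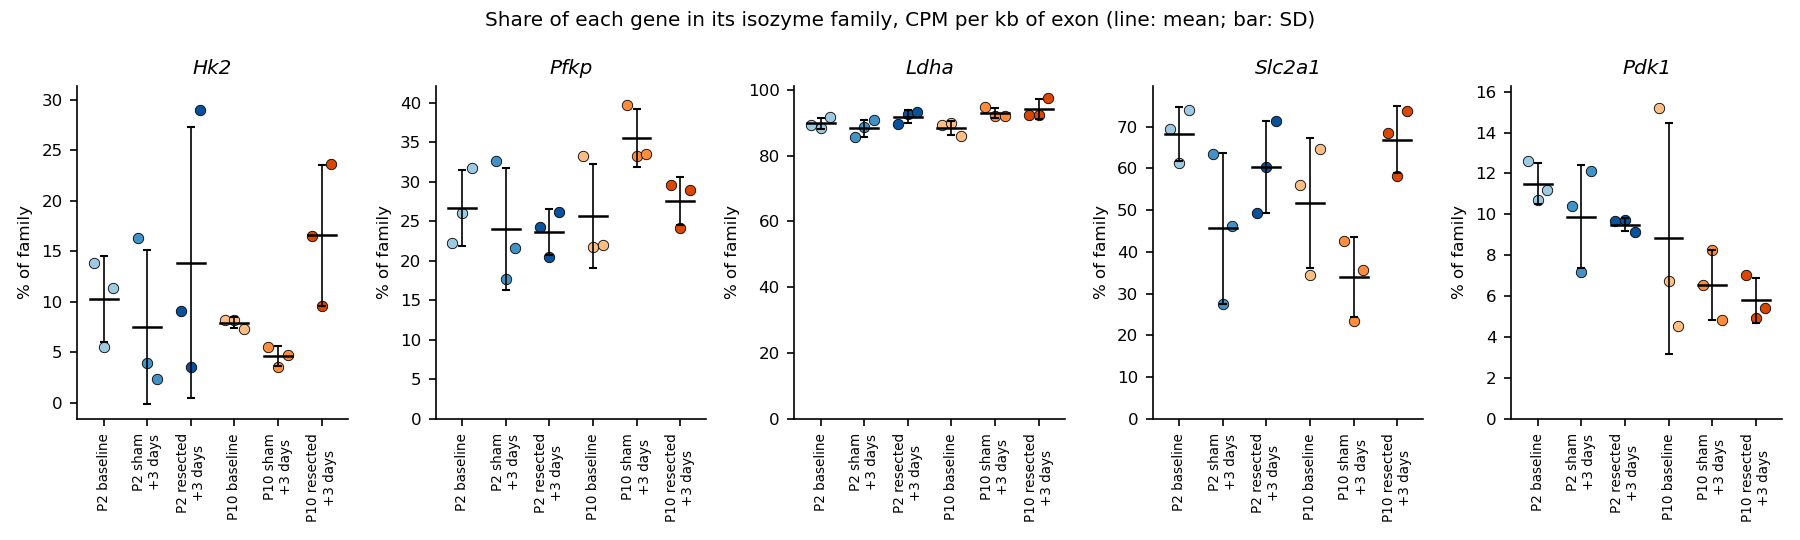
Share (%) of Hk2, Pfkp, Ldha, Slc2a1 and Pdk1 in its isozyme family per kilobase of exon, in each library; points are libraries, lines the mean and bars the SD of 3 libraries in each group. Ldha stays between 85.5% and 97.6%, while the Pdk1 share of P10 baseline replicate 1 stands at 15.2%.

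Beyond the 10 genes, 75 genes of 7 lists around glycolysis and hypoxia were followed, 73 of which passed the filter. Between the windows 14 were higher in the P10 window and 2 lower, 21.9% of those tested, beside 13.5% of all genes. The lists were chosen with earlier results of these data known, and the difference between these shares was not tested. Of the hypoxia-responsive targets, the longest list, 5 of 20 were higher and none lower, with a list median of 0.27. By share, the flux regulators (2 higher and 1 lower of 7) and transport (3 higher of 8) held more.

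Adm, which encodes the vasodilator peptide adrenomedullin, measured 50.2 ± 9.94 CPM in the P2 window and 117 ± 27.3 CPM in the P10 window (SD, 9 libraries each; log2 fold change 1.2 ± 0.14). P4ha2, a collagen prolyl hydroxylase, measured 81.2 ± 18.9 and 167 ± 36.2 CPM (1.05 ± 0.18). Neither gene overlapped between the windows. Mxi1, a MAX-binding repressor, measured 40.5 ± 8.39 and 80.9 ± 25.5 CPM, and Stc2, a secreted stanniocalcin, 13.9 ± 3.35 and 27.4 ± 6.83 CPM. Ndrg1, a stress-responsive gene, measured 14.1 ± 5.90 and 31.2 ± 9.04 CPM, and the adjusted p of these 5 ran from 1.74e-05 to 0.00577 in edgeR's quasi-likelihood test. Vegfa, the angiogenic factor, was not called (log2 fold change 0.18 ± 0.22).

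Of the 9 genes of the oxygen-sensing pathway, Epas1 was higher and Hif3a lower in the P10 window. Epas1, which encodes HIF-2α, measured 39.8 ± 16.4 and 66.7 ± 20.8 CPM (log2 fold change 0.77 ± 0.20; edgeR's quasi-likelihood test, adjusted p 0.0167). Hif1a, which encodes HIF-1α, had a log2 fold change of -0.12 ± 0.22, and the protein, which oxygen controls, was not measured. Hif3a ran at 23.1 ± 3.84 CPM in P2 baseline and between 0.263 and 6.73 CPM on average in the other 5 groups. Its fitted log2 fold change of -2.60 ± 0.68 averages 3 differences, of which the baseline one rests on libraries near 0.

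Of the regulators of glucose use 2 were higher: Txnip, which restrains glucose uptake, measured 245 ± 63.3 and 473 ± 173 CPM, and its relative Arrdc4 22.5 ± 8.16 and 44 ± 11.5 CPM. Their log2 fold changes were 0.93 ± 0.17 and 0.97 ± 0.18 (edgeR's quasi-likelihood test, adjusted p 0.000932 and 0.00127). Pfkfb1, an isoform of the enzyme that makes the activator of phosphofructokinase, was called lower, with group means from 0 to 3.57 CPM and no count in any P10 sham library. Among transporters Slc2a8, Slc2a10 and the lactate carrier Slc16a1 were higher, with log2 fold changes of 1.02, 0.53 and 0.40. Slc16a1 had a log2 fold change of 0.84 at baseline and 0.56 after sham surgery but -0.18 after resection, where it measured 41.8 ± 3.96 CPM at P10 and 47.5 ± 6.94 CPM at P2 (SD, 3 each). The age difference in resected minus that in sham libraries was -0.74 ± 0.32 (SE) and was not called (edgeR's quasi-likelihood test, adjusted p 1.0). In the same list the lactate exporter Slc16a3 had -0.39 ± 0.20 and was not called.

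At the pyruvate gate Pdk2 was higher, at 33.1 ± 10.8 and 60.2 ± 18.4 CPM (log2 fold change 0.90 ± 0.21; edgeR's quasi-likelihood test, adjusted p 0.00883), and it was the only one of 10 genes called. Pdk4 had 0.85 ± 0.30 with an adjusted p of 0.0697 in that test and was not called. The pentose phosphate list had 1 of 7 genes called, Pgd, at 0.49 ± 0.16. Of the 12 other core glycolysis genes tested, Eno2 was called higher, from group means between 0.123 and 6.48 CPM in the P2 window to means between 5.41 and 6.99 CPM. Its fitted value averages 3 differences, of which the baseline one rests on P2 libraries at 0 to 0.368 CPM, while the sham groups measured 6.99 ± 1.62 CPM at P10 and 6.48 ± 3.29 CPM at P2. Gapdh (0.05 ± 0.16), Tpi1 (-0.12 ± 0.19), Gpi1 (0.20 ± 0.15), Pgam1 (-0.17 ± 0.16) and Ldhb (-0.38 ± 0.21) were not called.

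**Figure D5:**
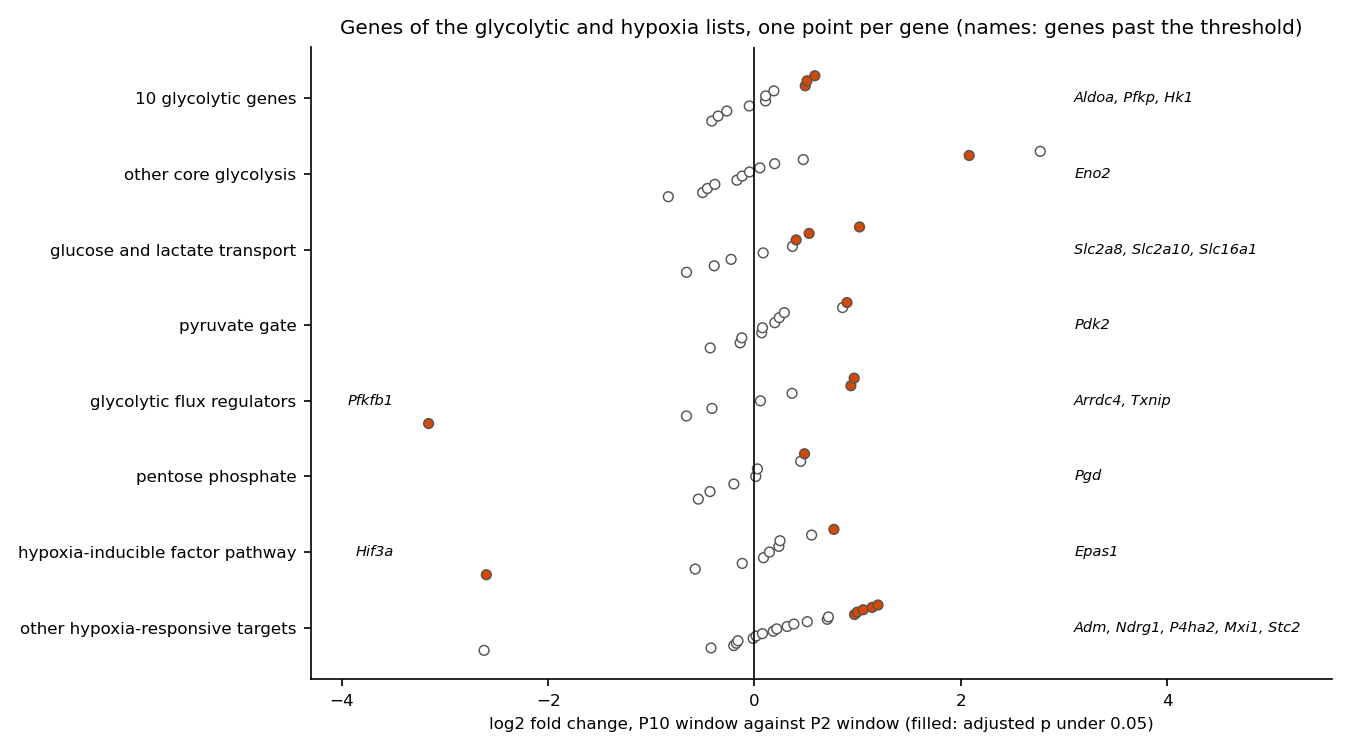
Log2 fold change (x axis) between the P10 and P2 windows for the 10 glycolytic genes and for 7 further lists, 1 point a gene; filled points passed the adjusted p threshold of 0.05, with their names at the side where they lie. Of the further genes 14 lie to the right and 2, Pfkfb1 and Hif3a, to the left.

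In resected against sham libraries no gene of these lists was called at either age. At P10, 8 of 12 other core glycolysis genes and 12 of 20 hypoxia-responsive targets had positive log2 fold changes, with medians of 0.21 and 0.20, beside 0.02 over all genes. The pyruvate gate went the other way, with 2 of 10 positive and a median of -0.21. The pentose phosphate list had 2 of 7 positive (median -0.02), transport 4 of 8 (0.01), the oxygen-sensing pathway 5 of 9 (0.05) and the flux regulators 5 of 7 (0.185). At P2 the list medians ran from -0.17, for the pyruvate gate, to 0.23, for the oxygen-sensing pathway, with 0.03 for the hypoxia-responsive targets, beside 0.00 over all genes.

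Across the 18 libraries the 10 genes did not follow 1 course. Of their 45 pairs, 2 had a Pearson r over 0.8 on log2 CPM, Eno1 with Pkm (0.93) and Pgk1 with Ldha (0.82), the median was 0.21 and the lowest was -0.65, between Aldoa and Pdk1. With the group means taken out, 9 of the 45 pairs had an r over 0.8, all of them among Aldoa, Pgk1, Eno1, Pkm and Ldha. These 9 ran from 0.84, for Pkm with Ldha, to 0.96, for Eno1 with Pkm, and the remaining pair of the 5 genes, Eno1 with Ldha, stood at 0.79. The median over the 45 pairs was then 0.28. In P2 sham, P2 resected, P10 baseline and P10 sham, replicate 1 was the lowest library of its group for each of the 5 genes. There the 10 genes together took 0.146%, 0.167%, 0.145% and 0.172% of the counts. The libraries share age, depth and preparation, and the correlations are given as a description. Among all genes tested the closest to Ldha were Tpi1 (0.91) and Gapdh (0.89), to Pkm Serpinh1 (0.95) and Eno1, to Aldoa Ebp (0.96) and Pcolce (0.92), and to Hk1 Rxra (0.91) and Flywch1 (0.88). Those closest to Hk2 were Ddit4 (0.79) and Fosb (0.79). The genes closest to Pgk1 were Mif (0.88) and Nme1 (0.84), to Pfkp G530011O06Rik (0.85) and Ndrg2 (0.85), and to Eno1, after Pkm, Xpnpep1 (0.87).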

How the data were processed

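Fibroblasts were sorted by GFP, RNA was pre-amplified from low input, and 75-base single-end reads were sequenced. The authors trimmed reads with fastp 0.20.0, aligned them to GRCm38.p6 with STAR 2.7.0f and counted them per gene symbol with featureCounts (Subread 1.6.4), unstranded, on GENCODE M22, and deposited raw counts. The labels do not say whether each library was 1 mouse, so p-values measure the spread between libraries, which may be in part technical.

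From these counts, edgeR 4.0.16 (R 4.3.3) was fitted to all genes in all 18 libraries, with 1 mean per group, TMM scaling and filterByExpr (minimum count 10, minimum total 15), using the quasi-likelihood test. A gene was called at a Benjamini-Hochberg adjusted p under 0.05 over all 16170 genes tested. The window contrast is the mean of 3 log2 differences, and an SE is the log2 fold change divided by the square root of F. CPM use TMM-scaled totals. Isozyme shares were compared with two-sided exact permutation tests. On simulated data for the window contrast over 16170 genes, 52% of 2-fold and 94% of 4-fold changes were recovered. Depth, 10462737 to 22980554 counts per library, limits Hk2, whose count fell to 23 in 1 library.

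Alternatives were DESeq2 1.42.0, limma 3.58.1 (voom with quality weights), other scalings, no filter, only the compared groups, a replicate block and leaving out each library. Gene lengths and positions came from GENCODE M21, promoters from RefSeq. Members and lists were chosen with earlier results of these data known. The text names all 10 members, the genes of each other list called between the windows (up to 4 by smallest adjusted p), 10 set pathway genes and the 2 closest genes to each member, which for Slc2a1 and Pdk1 are not reported here. Stc2, one more hypoxia target, was added after its values were seen, since all 5 are counted.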

Additional observations from a re-analysis of the deposited data

Results flagged for a closer look

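Groups of 3 libraries are too small to be screened for a library that stands apart, so each window of 9 libraries was screened, for the CPM of the 10 genes and for the 5 isozyme shares, with Dixon's ratio against its 95% critical value. Of 30 such sets 3 passed it, and chance gives about 1 in 20. Hk2 stood at 30.6 CPM in P2 resected +3 days replicate 3, with the next library of the P2 window at 10.8 CPM (ratio 0.681). Pdk1 stood at 41.6 CPM in P10 baseline replicate 1, with the next library of the P10 window at 27 CPM (0.555), and its share of the 4 pyruvate dehydrogenase kinases there was 15.2%, with the next at 8.25% (0.652). The windows pool 3 groups, so a difference between groups can widen or hide such a gap.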

How the results depend on the processing

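Counts of members called kept within 1.5 times of the reported count in 120 of 134 alternative fits. Between the windows, total count scaling left 1 member called (Pfkp), and leaving out 1 library gave 2 to 4. That scaling also moved the split of all calls from 1149 higher of 2183 to 823 higher of 2548. At baseline limma's quality-weighted fit called 2, beside 22.5% of all genes. After sham surgery at P10 against P2, DESeq2, limma and the replicate block each called 2, beside 8.07%, 4.37% and 3.93% of the genes each tested, the unfiltered and compared-groups-only fits 0, and leaving out 1 library 0 to 1. DESeq2 called 1 in P10 resected against sham and 1 in P2 sham against baseline. Over 45 same-numbered pairs of libraries deviations correlated from -0.135 to 0.378, 15 over 0.1. All 3 pairs were over 0.1 between the resected groups (0.121 to 0.189) and between P10 baseline and sham (0.107 to 0.328). In both comparisons the replicate block also called 0 members, and it changed no other count of members. All 3 pairs were also over 0.1 between P2 sham and P10 baseline (0.146 to 0.378), which were not compared directly. The highest values, 0.378, 0.328 and 0.291, all came from replicate 1 of P2 sham, P10 baseline and P10 sham.

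Single genes kept sign and call in 441 fits, were weaker in 14, stronger in 6 and reversed in 13. Between the windows, total count scaling gave -0.025 for Eno1 and -0.026 for Pkm, and leaving out 1 library gave -0.15 to 0.032 for Ldha, above 0 in 5 fits. Between the baseline groups Eno1 came to -0.021 with total count scaling. These 3 signs turned with a shift of all genes. Relative to the median of all genes, no member changed sign between the scalings in either comparison, and none moved by over 0.02. Leaving out 1 baseline library gave -0.18 to 0.44 for Eno1, -0.051 to 0.43 for Pkm and -0.64 to 0.047 for Pdk1, each reversed without P10 baseline replicate 3 and Eno1 also without P2 baseline replicate 2 (-0.003). Hk2 at P2, resected against sham, ranged from -0.31, without P2 resected replicate 3, to 2.57. Slc2a1 and Hk2 were followed in the surgery comparisons after their values were seen.

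Of the isozyme shares, Pdk1 passed the threshold without exon length (-7.69 points; exact permutation test, adjusted p 0.0346). In baseline libraries alone Pfkp came to -0.996 and Ldha to -1.42 points. Leaving out 1 library, Pdk1 ranged from -4.27 to -2.94 points and Hk2 from -2.60 to 1.43 points. The cause of these changes was not tested.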
